A study of Bos taurus with 8 samples.

Results

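Transcripts of TNF, members of the IL-6 family and cytokines that restrain inflammation were followed in peripheral blood mononuclear cells (PBMCs, the lymphocytes and monocytes of blood) of lame and normal cows. The genes are TNF, TNFAIP6, IL6, OSM, LIF, IL10, TGFB1, PTGS2, CSF2 and CSF3, and their probes were found by accession. That gave 16 probes for 10 genes, of 26649 genes on the array. The groups were lame crossbred cows, normal crossbred cows and normal cows of the Tharparkar breed, an Indian zebu breed, with 4, 2 and 2 arrays of a 1-colour Agilent bovine design. No treatment of the animals is named in the labels used here, nor is their age, the cause of the lameness, the breeds behind the crossbred animals, or how many cows gave each RNA sample. The normal crossbred group differs from the lame group in condition and from the Tharparkar group in breed, while the lame and Tharparkar groups differ in both.

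TNF is a cytokine made chiefly by monocytes, macrophages and T cells. It signals through its receptors to NF-kB, and its transcript is short-lived because AU-rich elements mark it for decay. TNF and other inflammatory signals induce TNFAIP6, a secreted hyaluronan-binding protein, and PTGS2, the inducible cyclooxygenase that starts prostaglandin synthesis. IL6, OSM and LIF belong to 1 cytokine family that uses the shared receptor subunit IL6ST and STAT3. IL10 and TGFB1 limit inflammation, whereas CSF2 and CSF3 are growth factors for myeloid cells and granulocytes.

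Levels are log2 of the processed signal minus the 75th percentile of the array, so 0 means as bright as that percentile. Probes were kept if some group had all of its arrays flagged well above background, and each gene was represented by its kept probe with the highest mean. The text calls a gene higher or lower past the test at an adjusted p under 0.05 (limma over 15137 genes). Between 52.7% and 61.4% of probes were well above background on 7 arrays, against 70.9% on lame array R2_2, whose median raw signal was 192.5 against 74 to 102 on the other arrays. Arrays that share a first number in the lame group correlated across genes at 0.995 (R1) and 0.981 (R2), the normal crossbred arrays at 0.997, the Tharparkar arrays at 0.995, and lame R1 with lame R2 at 0.951 to 0.970. Between groups the range was 0.931 to 0.966. With the labels' statement that RNA was run in technical duplicate, these values read as 4 RNA samples, namely lame R1 and R2, with 1 sample in each normal group. In what follows n counts arrays. The p-values reflect array-to-array spread and do not measure the spread between cows. Where it alters a call of one of the 10 genes, the adjusted p is also given from a fit that treats the RNA sample as a random block. For related genes, the calls that stayed in that fit are named and the others are given as a range. Each slide held arrays of all groups. In mixed cells, fewer cells of a type and less RNA per cell cannot be told apart. Of the lists of defining markers, 16 of 16 T-cell genes on the array, 7 of 7 B-cell genes and 14 of 16 monocyte genes were measured, and so were 17 of 19 granulocyte genes.

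Of the 10 genes, 6 had a kept probe: TNF, TNFAIP6, OSM, IL10, TGFB1 and PTGS2. IL6, LIF, CSF2 and CSF3 had none and were not tested. OSM was kept through the Tharparkar arrays alone, so its difference from the other groups follows in part from how it was kept, and its values are given as a description with no test. Of the 16 probes, 5 were well above background on all 8 arrays, 4 on none and 7 on some. The share of all probes was 47.8% for every array and 22.6% for no array.

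**Figure D1:**
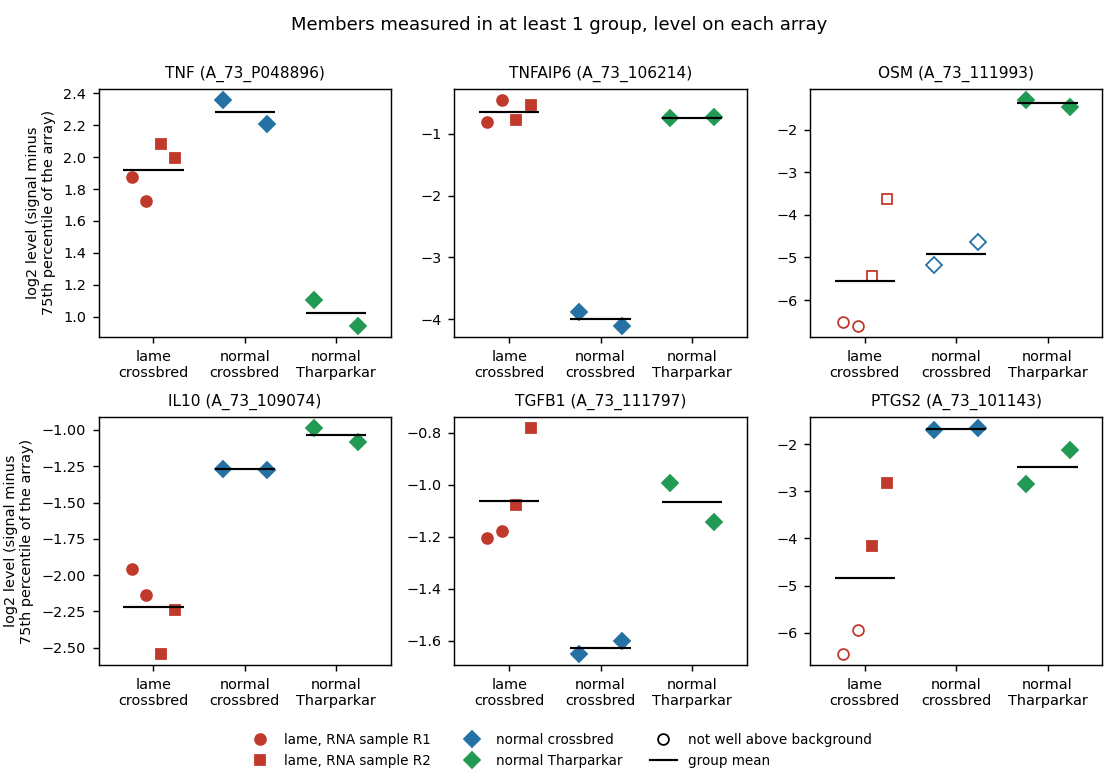
Log2 level on each array (y axis, signal minus the 75th percentile of the array) of the 6 genes with a kept probe, by group from left to right; circles and squares are lame RNA samples R1 and R2, diamonds the normal arrays, open symbols spots not well above background, and lines group means. TNFAIP6 stands near -4 on the normal crossbred arrays and between -0.81 and -0.46 on the lame arrays, OSM is filled only for Tharparkar, and PTGS2 is open on the lame R1 arrays.

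TNFAIP6 was brighter in lame than in normal crossbred cows on every array. Its processed signal was 157 and 218 units on the lame R1 arrays and 182 and 239 units on the lame R2 arrays, against 16.8 and 14.6 units on the normal crossbred arrays and 128 and 125 units on the Tharparkar arrays. On the log2 scale the levels were -0.81, -0.46, -0.78 and -0.54 in lame cows, -3.89 and -4.10 in normal crossbred cows and -0.74 and -0.74 in Tharparkar cows. All 4 lame arrays lay above both normal crossbred arrays, and the lame arrays spanned the Tharparkar values.

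TNFAIP6 was thus 10.2-fold higher in lame than in normal crossbred cows (log2 fold change 3.35, SE 0.16, limma adjusted p = 0.000103). It was 9.55-fold lower in normal crossbred than in normal Tharparkar cows (-3.26, SE 0.19, limma adjusted p = 0.00018). Lame and Tharparkar cows did not differ past the test (0.09, SE 0.16, limma adjusted p = 0.715). The first value was 3.09 on slide 1 and 3.60 on slide 2, and the second was -3.15 and -3.36. Both sizes rest on the only TNFAIP6 probe and on dim normal crossbred signals, at -3.89 and -4.10. The lowest levels well above background on those arrays were -4.54 and -4.92. With normexp background correction the 2 values were smaller, at 1.59 and -1.62. With the RNA sample as a random block the limma adjusted p was 0.0416 for lame over normal crossbred and 0.0394 for normal crossbred over Tharparkar. The outlying group here is the normal crossbred one, and it is a single RNA sample by the reading above.

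TNF itself moved differently. Its brighter probe stood at 1.87 and 1.72 on the lame R1 arrays and 2.08 and 1.99 on the lame R2 arrays, against 2.36 and 2.21 in normal crossbred cows and 1.10 and 0.94 in Tharparkar cows. The normal crossbred arrays were the brightest, the lame arrays came next and the Tharparkar arrays were the dimmest, with no overlap. TNF was 2.39-fold higher in normal crossbred than in Tharparkar cows (1.26, SE 0.18, limma adjusted p = 0.00429) and 1.86-fold higher in lame than in Tharparkar cows (0.90, SE 0.15, limma adjusted p = 0.00736). Between lame and normal crossbred cows the log2 fold change was -0.36 (SE 0.15, limma adjusted p = 0.192), so these neighbours in the order did not differ past the test. The calls against Tharparkar were lost with the RNA sample as a random block (limma adjusted p = 0.208 and 0.247). They did not pass with duplicates averaged either. That fit ranks genes by fold change only, so it does not weigh the spread of TNF. The call for normal crossbred cows was also lost without normal crossbred R1 (1.18, adjusted p = 0.0513), and that for lame cows without Tharparkar R1 (0.98, adjusted p = 0.0602) or R2 (0.82, adjusted p = 0.0883).

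The dimmer TNF probe, A_73_120282, was well above background on every array and gave smaller and less regular differences. Its levels were -2.28, -2.55, -1.51 and -1.06 in lame cows, -1.87 and -2.00 in normal crossbred cows and -2.45 and -2.72 in Tharparkar cows. The lame arrays overlapped both normal groups, and the R1 arrays were the lower ones. Fitted on its own, the probe gave 0.09 for lame over normal crossbred, 0.65 for normal crossbred over Tharparkar and 0.74 for lame over Tharparkar (limma adjusted p = 0.923, 0.384 and 0.234). With the mean of both TNF probes, the TNF values against Tharparkar were 0.96 and 0.82, with limma adjusted p = 0.0617 and 0.0597, and no longer passed.

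OSM, a monocyte and granulocyte cytokine of the IL-6 family, was well above background in Tharparkar cows only. Its levels were -6.51, -6.60, -5.44 and -3.62 in lame cows and -5.19 and -4.63 in normal crossbred cows, none well above background, against -1.31 and -1.46 in Tharparkar cows. Where a group has only a bound, the fold is a lower bound. The dim side is then set, on each array, to the dimmest signal that was flagged well above background, or to the dim signal itself if that is higher. OSM was at least 7.80-fold lower in lame than in Tharparkar cows and at least 9.19-fold lower in normal crossbred than in Tharparkar cows. The lame and normal crossbred arrays overlapped. No fold is given between lame and normal crossbred cows, both below background.

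The other family members gave little signal. No array had an IL6 probe well above background, and the IL6 levels ran from -6.85 to -4.19 for A_73_P035016 and from -6.62 to -5.28 for A_73_107706 over the 4 lame arrays. LIF, a cytokine that acts on stem cells and the acute-phase response, was well above background on lame R2_2 alone, through probe A_73_P109331. That probe stood at -6.77, -7.18, -4.61 and -2.07 on the lame arrays, against -6.84 and -7.17 in normal crossbred cows and -6.66 and -6.56 in Tharparkar cows. The second LIF probe was below that mark throughout.

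Of the myeloid growth factors, CSF2 was well above background on both lame R2 arrays and on no other. Its levels were -6.11, -6.68, -4.30 and -1.54 in lame cows, against -4.87 and -5.11 in normal crossbred cows and -6.41 and -6.17 in Tharparkar cows. The lame R1 arrays lay below the normal crossbred ones and the lame R2 arrays above them. CSF3, the granulocyte growth factor, never reached that mark.

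Signal of this kind was common on lame R2_2. Probes well above background there and nowhere else made up 11% of all probes and 3 of the 16 member probes: the LIF probe above, IL10 probe A_73_P030396 and PTGS2 probe A_73_P100746. Over 9872 probes that no array had well above background, the median level was -4.57 on lame R2_2, against -6.88 to -6.30 on the other 7 arrays, and their 95th percentile was -3.22 on lame R2_2. On lame R2_2 the levels of the named LIF, IL10 and PTGS2 probes and of CSF2 were above that value. These probes were well above background there, where the lowest such probe stood at -3.39, whereas the 9872 probes never were. Their place above that percentile therefore follows largely from the flag. Whether the raised background of R2_2 has a part in these levels was not tested. By array, 5, 5, 7 and 11 of the 16 member probes were well above background on lame R1_1, R1_2, R2_1 and R2_2, against 7 on each normal array.

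**Figure D2:**
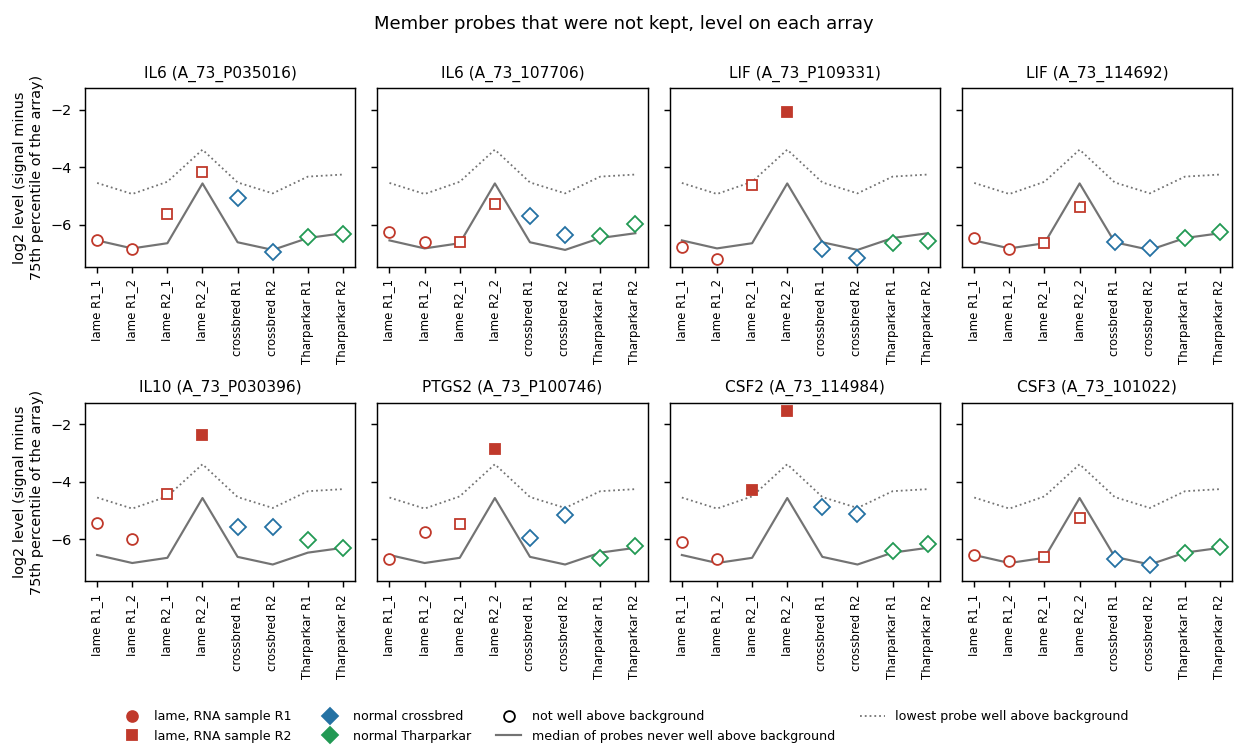
Log2 level on each array (y axis) of the 8 member probes that were not kept; symbols as in the plot of member levels, the solid line is the median of 9872 probes never well above background and the dotted line the lowest probe well above background on that array. The solid line climbs to -4.57 on lame R2_2, and the LIF, IL10, PTGS2 and CSF2 points on that array are filled.

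IL10, the main anti-inflammatory cytokine of monocytes and T cells, was lowest in lame cows on its kept probe. Probe A_73_109074 stood at -1.96, -2.14, -2.54 and -2.24 in lame cows, against -1.27 and -1.28 in normal crossbred cows and -0.99 and -1.08 in Tharparkar cows. All 4 lame arrays lay below all 4 normal arrays. IL10 was 1.93-fold lower in lame than in normal crossbred cows (-0.95, SE 0.18, limma adjusted p = 0.0208) and 2.27-fold lower in lame than in Tharparkar cows (-1.18, SE 0.18, limma adjusted p = 0.00474). The values within slides were -0.98 and -0.91 against normal crossbred cows and -1.26 and -1.11 against Tharparkar cows. Normal crossbred and Tharparkar cows did not differ past the test (-0.23, limma adjusted p = 0.488). Both IL10 calls were lost with the RNA sample as a random block (adjusted p = 0.554 and 0.196), and the first was also lost when either array of either normal group was left out (adjusted p from 0.0558 to 0.199). The second was lost without Tharparkar R1 (-1.14, adjusted p = 0.0618). The first was lost as well with quantile normalization (-1.36, adjusted p = 0.157), with normexp background correction (-0.58, adjusted p = 0.111) and with dim probes left in (adjusted p = 0.114), and the second with quantile normalization (-1.61, adjusted p = 0.0708). Neither passed with duplicates averaged, a fit that ranks genes by fold change only and does not weigh the spread of IL10. The other IL10 probe was not kept and was well above background on lame R2_2 alone. It ran the other way within the lame group, at -5.42, -5.98, -4.42 and -2.37. It stood at -5.57 and -5.59 in normal crossbred cows and -6.03 and -6.32 in Tharparkar cows, so its mean was highest in lame cows.

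TGFB1, which encodes a cytokine stored in latent form and released by proteases and integrins, varied little. Its levels were -1.21, -1.18, -1.08 and -0.78 in lame cows, -1.65 and -1.60 in normal crossbred cows and -0.99 and -1.14 in Tharparkar cows. The normal crossbred arrays were the lowest, and lame and Tharparkar arrays overlapped. The log2 fold change was 0.56 (SE 0.16, limma adjusted p = 0.0775) for lame over normal crossbred and -0.56 (SE 0.19, limma adjusted p = 0.0817) for normal crossbred over Tharparkar, neither past the test. Between lame and Tharparkar cows it was 0.01 (SE 0.16, limma adjusted p = 0.984). The value for normal crossbred over Tharparkar passed in 3 of 20 settings. These were without lame R2_2 (-0.56, limma adjusted p = 0.0331), quantile normalization (adjusted p = 0.03) and array weights (adjusted p = 0.000528). The value for lame over normal crossbred passed in 4 of 22 settings. It passed with quantile normalization (limma adjusted p = 0.0485) and array weights (adjusted p = 0.00382). It also passed with the lame R1 arrays alone (adjusted p = 0.0116) or the lame R2 arrays alone (adjusted p = 0.0137). Array weights and the R1 or R2 arrays alone called 7307, 7161 and 7026 of 15137 genes in that comparison. With the RNA sample as a random block neither value passed (limma adjusted p = 0.668 and 0.857).

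On its kept probe with the higher mean, PTGS2 was dimmer on the lame arrays than on the normal crossbred ones. How far the lame RNA samples stood apart depended on the normalization. That probe, A_73_101143, was kept through the normal groups alone. Its differences from lame cows therefore follow in part from how it was kept. Probe A_73_101143 had a processed signal of 3.16 and 4.88 units on the lame R1 arrays, neither well above background, and of 17.4 and 49.0 units on the lame R2 arrays, against 76.1 and 78.8 units in normal crossbred cows and 29.9 and 47.5 units in Tharparkar cows. The log2 levels were -6.45, -5.94, -4.17 and -2.83 in lame cows, -1.71 and -1.67 in normal crossbred cows and -2.84 and -2.13 in Tharparkar cows. All lame arrays lay below the normal crossbred arrays, while lame R2_2 overlapped the Tharparkar ones. The log2 fold change was -3.16 (SE 0.94, limma adjusted p = 0.0839) for lame over normal crossbred, -2.36 (SE 0.94, limma adjusted p = 0.113) for lame over Tharparkar and 0.80 (SE 1.09, limma adjusted p = 0.658) for normal crossbred over Tharparkar.

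The PTGS2 values against normal crossbred cows passed when lame R2_2 was left out (-3.83, limma adjusted p = 0.0147), when the lame R1 arrays were used alone (adjusted p = 0.000377, with no size given because neither array was well above background) and when the lame R2 arrays were used alone (-1.81, adjusted p = 0.0385). Without lame R2_2 the value against Tharparkar cows passed too (-3.03, limma adjusted p = 0.0165). Both also passed with quantile normalization (-3.72 and -2.99, adjusted p = 0.00525 and 0.00474) and with normexp (-1.06 and -1.14, adjusted p = 0.0347 and 0.0133). In all, PTGS2 passed in 7 of 21 settings against normal crossbred cows and in 6 of 21 against Tharparkar cows. With the RNA sample as a random block neither passed (limma adjusted p = 0.686 and 0.528). The lame R1 or R2 arrays alone called 7161 and 7026 of 15137 genes against normal crossbred cows. Sizes that include the lame R1 arrays rest in part on signals not well above background. Probe A_73_P101251 was dimmer, at -5.42, -5.44, -5.21 and -3.21 in lame cows, -4.04 and -3.57 in normal crossbred cows and -5.74 and -5.36 in Tharparkar cows. It was well above background on both normal crossbred arrays, on lame R2_2 and on no Tharparkar array. Being kept through the normal crossbred arrays alone, its differences from the other groups follow in part from how it was kept. Fitted on its own it gave -1.01 for lame over normal crossbred, 0.73 for lame over Tharparkar and 1.74 for normal crossbred over Tharparkar (limma adjusted p = 0.368, 0.444 and 0.143). For lame over Tharparkar the sign was opposite to that of A_73_101143, but only lame R2_2 was well above background there. With the mean of both probes the value for lame over Tharparkar was -0.82 (limma adjusted p = 0.471). For lame over normal crossbred it was -2.08 (adjusted p = 0.135). The lame arrays overlapped both normal groups on A_73_P101251.

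Within the lame group, the mean of R1 minus the mean of R2 was 0.02 for TNFAIP6, -0.24 for TNF, -0.26 for TGFB1 and 0.35 for IL10 on the log2 scale. It was -2.70 for PTGS2, with both R1 arrays below background, and -2.02 for OSM, below background throughout. With quantile normalization these values were -0.92 for PTGS2, -0.064 for OSM, -0.52 for TNF, -0.10 for TGFB1 and 1.28 for IL10. With normexp they were -0.46 for PTGS2 and -0.25 for OSM, and IL10 gave 0.17. The mean of both probes gave -0.69 for TNF and -1.96 for PTGS2. These differences are values without a test, because each side is 1 RNA sample.

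Of the 6 genes tested, limma called 2 in lame against normal crossbred cows, TNFAIP6 higher and IL10 lower, where 9.58% of all genes tested were called (3.25% higher and 6.33% lower). OSM, kept through the Tharparkar arrays alone, adds 1 to each of the next counts and is no support for them. The count was 3 in normal crossbred against Tharparkar cows (TNF higher, TNFAIP6 and OSM lower), where 18.7% were called (11.8% higher and 6.9% lower), and 3 in lame against Tharparkar cows (TNF higher, OSM and IL10 lower), where 23.3% were called (12.5% higher and 10.8% lower). Fitted probe by probe, 2, 3 and 3 of the 8 kept member probes were called in these comparisons, where 7.37%, 17.7% and 21.6% of all kept probes were. The counts over 6 genes are too small to differ readably from these shares. The lame group enters 2 of the comparisons, as does each normal group, so the comparisons are not independent. Arrays did not overlap for 5 genes in lame against normal crossbred cows, 2 above and 3 below, where 15.7% of all genes lay above and 23.2% below. PTGS2, kept through the normal groups alone, is among those below and is no support for them. In normal crossbred against Tharparkar cows 2 lay above and 4 below (41.6% and 40.3% of all genes), and in lame against Tharparkar cows 1 above and 2 below (24.8% and 25.1%). With the RNA sample as a random block the counts were 1, 1 and 0, the first and second both TNFAIP6. In the last comparison, 3 genes had an unadjusted p under 0.05 in that fit.

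**Figure D3:**
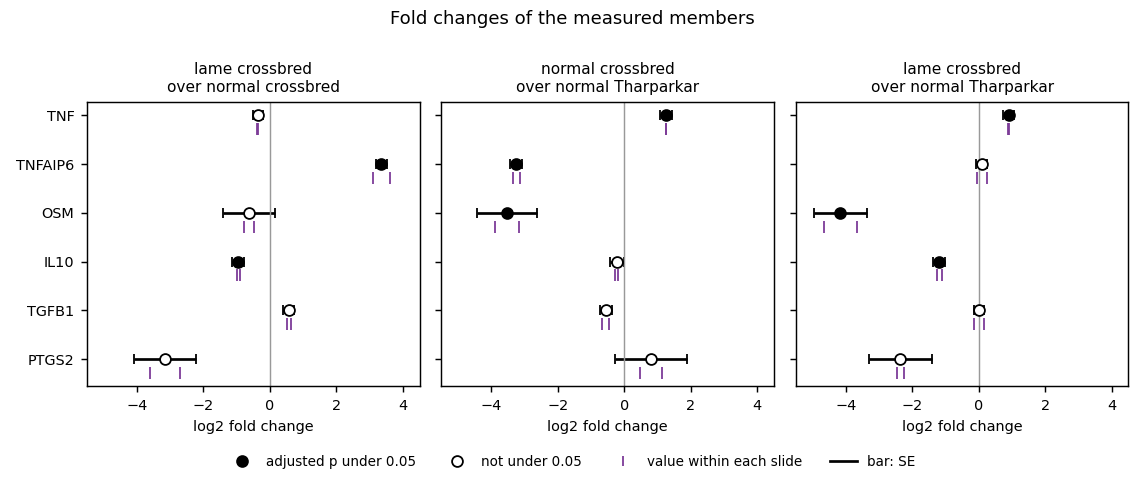
Log2 fold change (x axis) of the 6 genes in each comparison with bars for the SE, filled where the limma adjusted p is under 0.05, and purple ticks for the value within each slide. TNFAIP6 is filled at 3.35 and -3.26, OSM and PTGS2 have the widest bars, OSM was kept through the Tharparkar arrays alone, and TGFB1 lies at 0.01 for lame over Tharparkar.

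Related genes were followed in 8 lists: receptors, hyaluronan and TNFAIP6 partners, other cytokines of the families, TNF signalling to NF-kB, JAK-STAT signalling, mRNA decay, prostaglandin synthesis and TGF-beta activation. Over the 8 lists, 17 of 108 tested gene entries were called in lame against normal crossbred cows, where 9.58% of all genes tested were. The count was 17 in normal crossbred against Tharparkar cows (18.7% of all genes) and 27 in lame against Tharparkar cows (23.3% of all genes). With the RNA sample as a random block the counts were 0 (10 at an unadjusted p under 0.05), 3 and 3. The calls lost in that fit had adjusted p from 0.152 to 0.89, from 0.0517 to 0.627 and from 0.0614 to 0.636. Those that stayed were CD70, LTC4S and HYAL2 in normal crossbred against Tharparkar cows and LTC4S, HYAL2 and DUSP1 in lame against Tharparkar cows. Leaving out each array in turn gave 0 to 17, 5 to 26 and 6 to 28 calls by limma. The first count was 0 without normal crossbred R1 (21 at an unadjusted p under 0.05) and without normal crossbred R2 (18), so every call of lame against normal crossbred cows in these lists needs both normal crossbred arrays. It was 9 without Tharparkar R1 and also without Tharparkar R2. The second count was 5 or 6 without any 1 normal array and 26 without lame R2_2. The last was 6 without Tharparkar R1 and 9 without Tharparkar R2.

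Few receptors of these cytokines were called. Of 15 receptor genes on the array, 10 were measured, and limma called 0 in lame against normal crossbred cows (2 at an unadjusted p under 0.05) and 0 in normal crossbred against Tharparkar cows (2 at an unadjusted p under 0.05). The list's median log2 fold change was -0.01 and 0.00 there, against -0.04 and 0.01 over all genes. In lame against Tharparkar cows TNFRSF1A, the main receptor of soluble TNF, was lower (-1.07, SE 0.21, limma adjusted p = 0.0119). IL6R, the binding subunit of the IL-6 receptor, was higher (1.19, limma adjusted p = 0.0396), but its other kept probe gave -0.38 and the call was lost without lame R2_2 (1.04, adjusted p = 0.0522). TNFRSF1A stood at 2.14, 1.98, 2.61 and 2.55 in lame cows, against 3.03 and 2.92 in normal crossbred cows and 3.41 and 3.37 in Tharparkar cows.

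TNFAIP6 binds hyaluronan and the pentraxin PTX3, and 9 of 15 genes of its partners and of hyaluronan turnover were measured. In lame against normal crossbred cows 0 were higher (3 at an unadjusted p under 0.05) and 3 lower, with a median of 0.25 against -0.04 over all genes. PTX3 stood at -6.14, -5.59, -6.53 and -2.91 in lame cows, against -1.11 and -1.10 in normal crossbred cows and 1.17 and 0.95 in Tharparkar cows. It was well above background on 1 of 4 lame arrays, R2_2, the array with the raised background, so the fitted sizes below rest on lame signals that were mostly not measured. PTX3 was kept through the normal groups alone, so its differences from lame cows follow in part from how it was kept.

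PTX3 was lower in lame than in normal crossbred cows (-4.18, SE 0.91, limma adjusted p = 0.0327) and than in Tharparkar cows (-6.35, SE 0.91, limma adjusted p = 0.00371), while its other kept probe gave -0.59 and -2.70. HMMR, a hyaluronan receptor of dividing cells, was lower in lame cows in both comparisons (-0.85 and -0.87). Its other kept probes gave -0.32 and -0.37 against normal crossbred cows and -0.23 and -0.77 against Tharparkar cows. ITIH4, a plasma protein of the inter-alpha-inhibitor family, was lower in lame than in normal crossbred cows (-0.72). HYAL2, a hyaluronidase, was lower in lame (-2.53, SE 0.26) and in normal crossbred cows (-2.78, SE 0.30) than in Tharparkar cows (limma adjusted p = 0.00104 and 0.00162). Its levels were 1.78, 1.67, 1.00 and 1.01 in lame cows and 1.14 and 1.08 in normal crossbred cows, against 3.96 and 3.82 in Tharparkar cows. All 5 HYAL2 probes ran the same way against Tharparkar, and both calls stayed with the RNA sample as a random block (adjusted p = 0.0237 and 0.0394). HYAL1 was lower in normal crossbred than in Tharparkar cows (-0.72), and STAB1, a scavenger receptor that takes up hyaluronan, was higher in lame than in Tharparkar cows (1.30).

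Among 15 measured cytokines of the same families, 1 was higher and 1 lower in lame against normal crossbred cows, with a median of 0.52 against -0.04 over all genes. CD70, a TNF-family ligand that costimulates T cells, was higher (1.90, SE 0.30, limma adjusted p = 0.0111), and FASLG, the death ligand of cytotoxic cells, was lower (-1.17, SE 0.14, limma adjusted p = 0.004), with its other probes at -0.24 and -0.42. CD70 stood at -1.79, -1.76, -2.72 and -2.54 in lame cows, against -4.10 and -4.10 in normal crossbred cows and -0.92 and -1.06 in Tharparkar cows. CD70, like TNFAIP6, was dimmest on the normal crossbred arrays.

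CD70 was lower in normal crossbred than in Tharparkar cows (-3.11, SE 0.35, limma adjusted p = 0.00179), a call that stayed with the RNA sample as a random block (adjusted p = 0.0394), and lower in lame than in Tharparkar cows (-1.21). FASLG was higher in normal crossbred than in Tharparkar cows (0.88). IL27, a cytokine with an IL-6-like subunit, was at least 2.03-fold higher in lame than in Tharparkar cows (limma adjusted p = 0.0189). LTA, the TNF-family gene beside TNF in the RefSeq gene order, gave 0.97, -1.20 and -0.23 in the 3 comparisons, none past the test.

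For TNF signalling to NF-kB, 23 of 25 genes were measured. In lame against normal crossbred cows 0 were higher (1 at an unadjusted p under 0.05) and 3 lower, with a median of -0.21 against -0.04 over all genes. NFKBIA, the inhibitor that NF-kB itself induces, was lower (-0.78, limma adjusted p = 0.0327), with its other 3 probes between -0.59 and -0.01. RELA, an NF-kB subunit (-0.59), and RIPK1, a kinase of the TNF receptor complex (-0.55), were also lower, but other probes did not follow them: those of RELA gave 0.01, 0.08 and 0.93, and that of RIPK1 gave 0.83.

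In lame against Tharparkar cows 2 genes of this list were higher, CYLD, a deubiquitinase that restrains NF-kB (1.35, its other probe 0.77), and NFKBIE (0.84), and 4 were lower, the largest RELA (-0.97), NFKBIA (-0.76) and the kinase CHUK (-0.67). The other RELA probes gave -0.09, -0.81 and 0.04 there and the other NFKBIA probes 0.27, -0.55 and -0.44. In normal crossbred against Tharparkar cows 1 was higher, CYLD (1.17, its other probe 0.16), and 0 were lower (3 at an unadjusted p under 0.05). NFKBIE's other probe gave -0.43, so its direction depends on the probe.

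STAT3, the main target of IL6, OSM, LIF and IL10 receptors, belongs to a JAK-STAT list of which 16 of 16 genes on the array were measured. In lame against normal crossbred cows 0 were higher (0 at an unadjusted p under 0.05) and 1 was lower, STAT3 (-1.01, SE 0.18, limma adjusted p = 0.0155). The other STAT3 probes gave 0.88, -0.57 and -0.11 there. SOCS3, the feedback inhibitor that STAT3 induces, was well above background on the normal crossbred arrays alone and was kept through them. It stood at -4.03 and -4.33 there, against -6.08, -5.67, -4.87 and -3.30 in lame cows and -4.09 and -4.77 in Tharparkar cows. Lame and normal crossbred cows did not differ past the test (limma adjusted p = 0.534).

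In normal crossbred against Tharparkar cows 3 genes of this list were higher, among them SOCS2 (1.25) and STAT3 (0.72, limma adjusted p = 0.0499), and 1 was lower, STAT5B (-0.55), with the other STAT3 probes at 0.78, 0.25 and -0.03. In lame against Tharparkar cows TYK2, a kinase of cytokine receptors, was higher (0.88, its other probe 0.24) and STAT5B lower (-0.89). The list's median was -0.31 for lame over normal crossbred, 0.15 for normal crossbred over Tharparkar and -0.20 for lame over Tharparkar.

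Genes that decay AU-rich transcripts include ZFP36, which binds TNF mRNA. Of 11 measured, 0 were higher (0 at an unadjusted p under 0.05) and 2 lower in lame against normal crossbred cows, ZFP36 (-1.07, SE 0.14, limma adjusted p = 0.0056) and DUSP1, a phosphatase that limits p38 signalling (-1.07, SE 0.12, limma adjusted p = 0.00303). The list's median was -0.28, against -0.04 over all genes. ZFP36 stood at 3.50, 3.24, 3.40 and 3.28 in lame cows, against 4.45 and 4.40 in normal crossbred cows and 4.41 and 4.23 in Tharparkar cows. The lame arrays did not overlap either normal group.

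In lame against Tharparkar cows ZFP36 (-0.96), DUSP1 (-1.37) and ZC3H12A, an RNase that degrades cytokine mRNA (-1.91), were lower. DUSP1 stayed called with the RNA sample as a random block (adjusted p = 0.0404). Normal crossbred and Tharparkar cows gave 0 calls in this list (0 at an unadjusted p under 0.05).

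PTGS2 acts in a pathway of which 11 of 15 genes on the array were measured. In lame against normal crossbred cows TBXAS1, thromboxane synthase, was higher (0.96, SE 0.13, limma adjusted p = 0.00568), while LTA4H, which makes leukotriene B, (-0.77) and PTGS1, the constitutive cyclooxygenase, (-0.57) were lower. TBXAS1 stood at -0.20, -0.16, -0.02 and -0.10 in lame cows, against -1.14 and -1.02 in normal crossbred cows and -0.35 and -0.32 in Tharparkar cows. The normal crossbred arrays were again the dimmest.

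LTC4S, which makes leukotriene C, was higher in normal crossbred (2.85, SE 0.24) and in lame cows (3.01, SE 0.21) than in Tharparkar cows (limma adjusted p = 0.000612 and 0.000242), and both calls stayed with the RNA sample as a random block (adjusted p = 0.0394 and 0.016). PTGS1 (1.23) and LTA4H (0.77) were also higher and TBXAS1 (-0.75) and PTGES2, a prostaglandin E synthase (-0.91), lower in normal crossbred than in Tharparkar cows. PTGS1 was higher in lame than in Tharparkar cows (0.66). The list's median was -0.34, 0.58 and 0.24 in the 3 comparisons, against -0.04, 0.01 and -0.01 over all genes.

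For TGF-beta activation and SMADs, 13 of 20 genes were measured. In lame against normal crossbred cows 0 were higher (0 at an unadjusted p under 0.05) and 3 lower, among them LTBP1, which holds latent TGF-beta in the matrix (-1.70), and LTBP3 (-0.71, its other probe -0.03). The median was -0.16. LTBP1 (3.04) and LTBP3 (1.31) were higher and THBS1, an activator of latent TGF-beta (-1.43), lower in normal crossbred than in Tharparkar cows. In lame against Tharparkar cows LTBP1 (1.34) and LTBP3 (0.61) were higher, LTBP2, kept through the lame arrays alone, was at least 2.09-fold higher, and 3 genes were lower, among them THBS1 (-1.46) and TGIF1, a repressor of SMAD targets (-1.09).

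**Figure D4:**
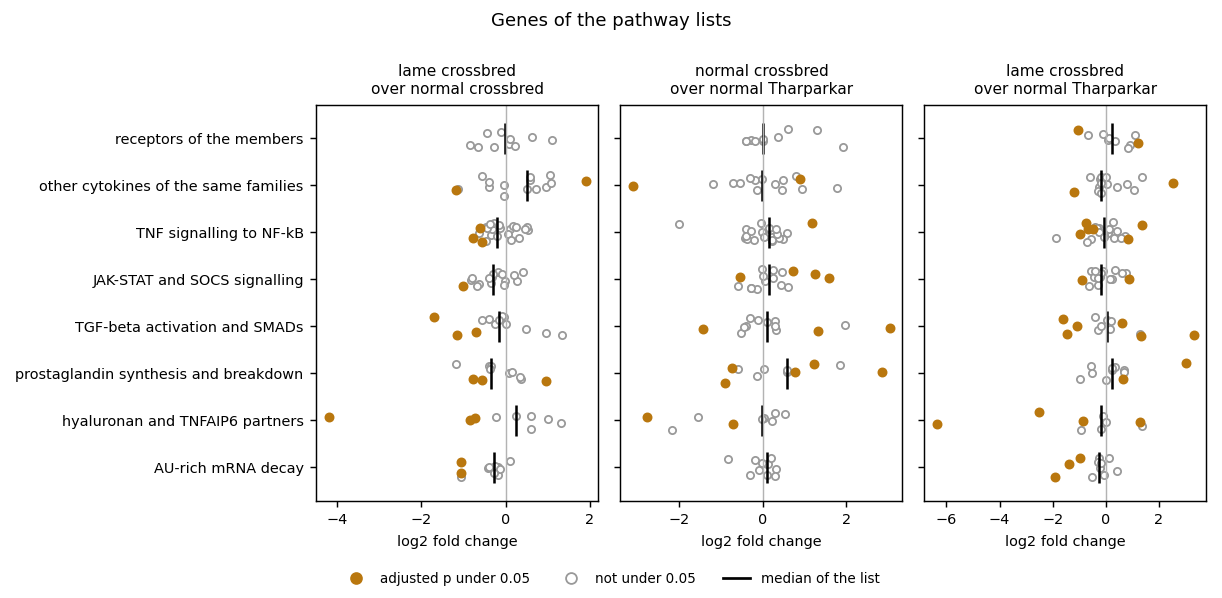
Log2 fold change (x axis) of the measured genes in the 8 pathway lists, 1 point a gene, in each comparison; filled points have a limma adjusted p under 0.05 and black lines are list medians. The point farthest left is PTX3, at -4.18 for lame over normal crossbred and -6.35 for lame over Tharparkar.

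**Figure D5:**
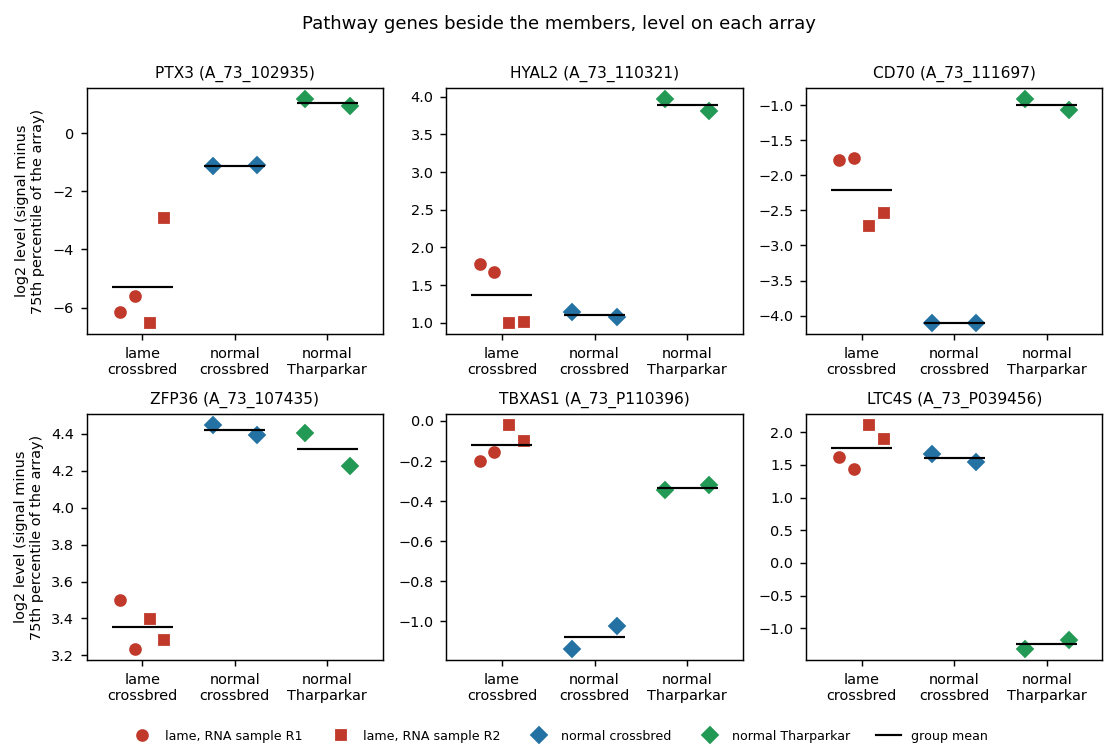
Log2 level on each array (y axis) of 6 genes from the pathway lists, by group from left to right, with lines for group means. PTX3 is lowest in lame cows, where 1 of 4 arrays was well above background, CD70 and TBXAS1 are lowest in normal crossbred cows, and HYAL2 is highest and LTC4S lowest in Tharparkar cows.

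Markers of several cell types also differed between the groups. The mean log2 level of the measured granulocyte markers ran from -1.66 to -0.98 on the lame arrays, against 0.01 to 0.11 on the normal crossbred and 0.36 to 0.39 on the Tharparkar arrays. In lame against normal crossbred cows 8 of 17 were lower, among them CXCR1 (-3.82) and CXCR2 (-3.33), the receptors that guide neutrophils. Against Tharparkar cows 10 of 17 were lower and 1 higher, where 10.8% of all genes were lower and 12.5% higher. CAMP and CATHL5 were not measured.

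These markers were lower in the same cows as IL10 and PTX3. The monocyte markers averaged 0.68 to 1.43 on the lame arrays, 0.66 to 0.67 on the normal crossbred arrays and 0.83 to 0.86 on the Tharparkar arrays, with 4 of 14 higher and 2 lower in lame against normal crossbred cows. TLR4 (-1.72) and CD14 (-1.56), the receptors for bacterial lipopolysaccharide, were the lower 2, with the other TLR4 probes at -0.16 and -0.57 and the other CD14 probe at -0.61. The 4 higher ones, named after their values were seen, were the complement genes C1QA, C1QB and C1QC and the receptor CSF1R, at 1.00 to 1.55, and the median of the list was 0.87. T-cell markers averaged 0.98 to 1.37 on the lame, 1.66 to 1.78 on the normal crossbred and 0.76 to 0.82 on the Tharparkar arrays. This is the order of the brighter TNF probe. In normal crossbred against Tharparkar cows 11 of 16 T-cell markers were higher and 1 lower, where 11.8% of all genes were higher and 6.9% lower. NK and cytotoxic markers averaged 0.04 to 0.77 on the lame, 1.05 to 1.10 on the normal crossbred and -0.21 to -0.14 on the Tharparkar arrays. Platelet markers averaged 1.01 to 1.60 on the lame arrays, 0.84 to 0.88 on the normal crossbred and -0.16 to -0.06 on the Tharparkar arrays, and against Tharparkar cows 4 of 7 were higher in lame and 3 of 7 in normal crossbred cows. PTGS1, LTC4S and LTBP1 were higher in the same comparisons. In lame against normal crossbred cows they did not follow these markers. There 1 of 7 platelet markers was higher and the list's median was 0.39, while PTGS1 (-0.57) and LTBP1 (-1.70) were lower and LTC4S gave 0.16. Erythroid markers averaged -1.38 to -0.34 on the lame, -1.71 to -1.56 on the normal crossbred and -1.97 to -1.92 on the Tharparkar arrays. The part of cell composition in any of these results was not tested. ACTB and GAPDH, common reference genes, gave log2 fold changes between -0.24 and 0.15, none past the test.

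Across the 8 arrays, the genes whose levels followed each member most closely were mostly transcripts without a RefSeq symbol, and the arrays share RNA samples, so Pearson's r is only a description. Under the rule of the 3 highest, the named ones were KCNK12 for IL10 (r = 0.989), NPM3 for TGFB1 (r = 0.988) and NUDT7 for PTGS2 (r = 0.989). Among genes with a RefSeq symbol, a choice made after the values were seen, the closest were IL7R for TNF (r = 0.991), LRATD1 for TNFAIP6 (r = 0.987) and FFAR3 for OSM (r = 0.988). IL7R is a T-cell marker, and CXCR1 was also among the 3 closest to IL10 (r = 0.988). Among the members themselves, TNFAIP6 and TGFB1 had the highest r, at 0.895 over 8 arrays. LIF and OSM are neighbours in the RefSeq order, and OSM was kept while LIF was not.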

How the data were processed

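Cy3-labelled PBMC RNA was measured on 8 Agilent bovine arrays, 1 colour each. The authors deposited the scanner output, in which the processed signal is an intensity already background-subtracted and detrended, per the file headers, with other columns that flag saturated spots, outliers and those well above background. The file headers name Agilent Feature Extraction 12.0.3.1, and the submitters' processing notes name 11.5.1.1. A second deposited table holds log2 values, with scale and centring unstated. It followed the scanner values at a correlation of 1 per array and served as an alternative, with column medians of 0.00, 0.00, -0.13 and 0.88 on lame R1_1, R2_1, R1_2 and R2_2, -0.07 and -0.12 in normal crossbred and 0.03 and 0.09 in Tharparkar cows.

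Here, log2 of the processed signal minus the 75th percentile of each array was taken over 43653 noncontrol probes, less 35 marked as outliers, with 0 saturated spots. Of 43618 probes, 27035 matched a RefSeq gene (assembly ARS-UCD2.0, used for names and gene order only) by accession and 16583 kept the file's name. The 24658 kept probes gave 15137 genes. The tests, 2-sided, came from lmFit and eBayes of limma 3.58.1, run under R 4.3.3 (3 group means, 5 residual and 2.34 prior degrees of freedom), with Benjamini-Hochberg adjustment over all genes. The number of arrays limits the precision. Same-numbered arrays of the groups share a slide, and their deviations from the group means correlated at 0.206 to 0.272, so the slide is given as a replicate block. Alternatives were quantile normalization, normexp background correction (offset 50, on the median signal, since no mean signal was among the columns used), the authors' table, other probe filters, mean of probes, blocks, duplicates averaged, array weights, each array left out and each lame RNA sample alone. Each kept probe fitted on its own, and list counts by RNA sample and without lame R2_2, were chosen after seeing the data.

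The members and gene lists were chosen with earlier results of these data known. Named genes were all members, up to 3 called genes with the largest change in each direction per pathway list and comparison, the 3 genes most like each kept member, ACTB, GAPDH and PTPRC, and up to 2 called markers per list and comparison beside a result. Some genes that this rule names are not reported here. PTPRC, the pan-leukocyte gene, gave -0.45, 0.55 and 0.10 in the 3 comparisons, with only the second past the test.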

Additional observations from a re-analysis of the deposited data

Results flagged for a closer look

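Of 16 member probes examined over the 4 lame arrays, 2 had 1 array far from the others, both on lame R2_2. For PTGS2 probe A_73_P101251 the gap to the nearest lame array was 0.900 of the range of the group, at -3.21 against -5.44 to -5.21 on the other lame arrays. For CSF3 the gap was 0.859 of the range, at a level not well above background. Chance alone marks about 5% of groups, and R2_2 is also the array with the raised background.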

How the results depend on the processing

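TNFAIP6 stayed called under every alternative run in lame against normal crossbred cows (log2 fold change 1.59 to 3.45) and in normal crossbred against Tharparkar cows (-3.36 to -1.62). For lame against normal crossbred cows the number of members called, 2 as reported, was 4 with quantile normalization, 1 without a filter on dim probes, 1 with the RNA sample as a random block, 6 with array weights, 6 with the lame R1 arrays alone and 4 with the lame R2 arrays alone, and 1 to 3 with 1 array left out. For normal crossbred against Tharparkar cows, 3 as reported with OSM, it was 1 with the RNA sample as a random block, 5 with array weights and 1 to 4 with 1 array left out. For lame against Tharparkar cows, 3 as reported with OSM, it was 0 by limma with the RNA sample as a random block (3 at an unadjusted p under 0.05) and 0 to 4 with 1 array left out. The 0 came without Tharparkar R1, where 3 members had an unadjusted p under 0.05. With the slide as a replicate block the counts were 2, 2 and 3, and no call other than OSM in normal crossbred against Tharparkar cows was lost. Over all genes, array weights called 7307 of 15137 in lame against normal crossbred cows, against 1450 as reported. The lame R1 arrays alone called 7161 there, the lame R2 arrays alone 7026 and quantile normalization 1415. In normal crossbred against Tharparkar cows array weights called 9439. Higher member counts with array weights or with 1 lame RNA sample alone are therefore not read as a result about the members.

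The sign turned for OSM with the lame R2 arrays alone against normal crossbred cows (0.38), for PTGS2 with normexp in normal crossbred against Tharparkar cows (-0.088) and for TNFAIP6 with normexp in lame against Tharparkar cows (-0.033). It also turned for TGFB1 in lame against Tharparkar cows with quantile normalization (-0.080), normexp (-0.14), array weights (-0.11), the lame R1 arrays alone (-0.13) and 1 array left out (from -0.087 without R2_2 to 0.081 without Tharparkar R1, and -0.069 without Tharparkar R2). None of these was a called value, and the cause was not tested.

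All genes called numbered 1450, 2834 and 3529 as reported. They were 634, 1308 and 1999 with normexp, 356, 997 and 1358 without the filter, 23, 96 and 204 with the RNA sample as a random block, 167, 375 and 532 with duplicates averaged, and 7307, 9439 and 8471 with array weights. With the lame R1 arrays alone they were 7161 and 8381 in the comparisons with lame cows, and with the lame R2 arrays alone 7026 and 8809. With duplicates averaged the prior is infinite, so calls there rank genes by fold change only. Leaving out 1 array gave as few as 181, 712 and 849. Dim probes, OSM, PTGS2 and those of IL6, LIF, CSF2 and CSF3 above all, are limited by signal over background.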
